A study of Mus musculus with 2 samples.

Results

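The mir-15/16 family is a set of related microRNA (miRNA) genes, and its members in mouse heart were taken by gene symbol from 2 small-RNA libraries. The symbols kept were Mir15a, Mir15b, Mir16-1, Mir16-2, Mir195a, Mir497, Mir322 and Mir503, which makes 8 of the 2202 miRNA genes in the count tables. Heart tissue came from male B6CASTF1/J mice, first-generation offspring of a cross between the B6 and CAST strains. Their age label reads 36 days, although a free-text field writes the same number with months. The mice carried no labelled treatment or edited allele, and both libraries form 1 group, so the data describe levels and hold no contrast between ages, treatments or tissues. The labels number the libraries as biological replicates from differently numbered males but give both the same donor record, so an SD below measures the spread between these samples, which may be technical.

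A miRNA gene makes a hairpin RNA that is cut into a short mature strand from its 5′ arm (5p) and one from its 3′ arm (3p). The mature strand finds its target messenger RNAs mainly through its seed, bases 2 to 8. The mir-15/16 family is known for repressing genes that drive the cell cycle and for the anti-apoptotic target Bcl2. In the mouse heart its members, miR-195 above all, are known to rise after birth, when heart muscle cells stop dividing. No cell-cycle readout, messenger RNA or second age was measured in these libraries, so the name of the family's role is background and not a result.

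The 7 distinct 5p strands of the 8 genes are shown first because the family is defined by their seed, here in capitals (RefSeq, GRCm38.p6, 5′ to 3′; all 8 genes matched a 5p entry).
miR-15a-5p: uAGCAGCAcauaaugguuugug
miR-15b-5p: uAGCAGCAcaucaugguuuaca
miR-16-5p: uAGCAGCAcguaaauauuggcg
miR-195a-5p: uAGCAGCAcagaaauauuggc
miR-497a-5p: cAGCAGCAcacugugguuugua
miR-322-5p: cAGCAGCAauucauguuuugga
miR-503-5p: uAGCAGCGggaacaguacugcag
All but miR-503-5p carried the seed AGCAGCA. Written from miR-16-5p to miR-503-5p, with positions counted from 1 at the 5′ end, the seed change is A8G. The RefSeq table holds 1738 mature entries and lists miR-16-5p separately for Mir16-1 and for Mir16-2. Of these entries, 11 (0.633%) carried AGCAGCA and 1 (0.0575%) carried AGCAGCG, which was miR-503-5p itself.

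Outside the seed the strands differed widely. Compared base by base without gaps, miR-195a-5p differed from miR-16-5p at 2 of 21 positions (G10A and U11G), and miR-15a-5p differed from miR-15b-5p at 4 of 22. At the other end, miR-497a-5p and miR-503-5p differed at 12 of 22 positions. The strands from 1 locus were not the most alike: miR-15a-5p and miR-16-5p differed at 6 positions, and miR-322-5p and miR-503-5p at 11.

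The 5p strand of Mir16-1 and Mir16-2 is the same sequence, which bears on how their reads could be counted. Both hairpins are printed with their longest common stretch, of 23 bases, in capitals (RefSeq, GRCm38.p6; Mir16-1 at chr14:61631880-61631972, minus strand; Mir16-2 at chr3:69009902-69009996, plus strand).
Mir16-1: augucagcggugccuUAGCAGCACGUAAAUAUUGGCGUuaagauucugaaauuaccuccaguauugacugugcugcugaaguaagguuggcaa
Mir16-2: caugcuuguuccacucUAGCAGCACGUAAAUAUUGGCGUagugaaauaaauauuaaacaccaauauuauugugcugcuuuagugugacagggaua
The capitals hold all of miR-16-5p, while the 3p strands, shown next with bases 2 to 8 in capitals, differ between the loci.
miR-16-1-3p: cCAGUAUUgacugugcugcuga
miR-16-2-3p: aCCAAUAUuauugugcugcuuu
Reads that mapped to several places were assigned to no gene. A read lying within the 23 shared bases fits both hairpins, so the counts of Mir16-1 and Mir16-2 leave out such reads of miR-16-5p. How many were left out was not tested, and neither count is a level of miR-16-5p. Each of the other 6 members shared at most 16 bases with any annotated hairpin, leaving aside Mir497b opposite Mir497.

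The libraries held 5479149 and 4893073 reads, and 1999362 and 1862526 of them fell on the sense strand of a single miRNA gene. Levels are given as counts per 1000000 of these assigned reads (CPM), in the order library 1, library 2, and each sums both arms of a hairpin. A read covers a mature strand rather than a stretch of a longer transcript, so levels were not divided by hairpin length. Intervals are exact 95% intervals (Clopper-Pearson) and cover counting error only. Heart muscle markers were present: Mir208a, carried in the alpha myosin heavy chain gene, stood at 7004 and 3393 CPM. The list of 7 heart muscle miRNAs took 0.856% and 0.670% of assigned reads, with Mir1a-1, Mir133a-1 and Mir133a-2 at 6 reads or fewer per library. These 3 and Mir1a-2 each share a 22-base stretch with another locus. Reads that fit both loci are left out, so these low counts do not show absence, and how many are missing was not tested. Of 344 genes tested between the libraries, 59 (17.2%) differed by 2-fold or more at an adjusted p under 0.05. Mir208a was among them, lower in library 2, and Mir499 was among them, higher in library 2. With scaling by TMM (edgeR's trimmed mean of M-values) the log2 ratio of Mir208a was -0.86, under 2-fold. In whole tissue, fewer cells of a type and less RNA per cell cannot be told apart.

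The family took a little over 1% of the counted heart miRNA reads in both libraries. It held 25269 reads in library 1, or 1.26% of assigned reads (interval 1.25 to 1.28), and 22029 in library 2, or 1.18% (1.17 to 1.20), a mean of 1.22% ± 0.0573 (SD, n = 2). Reads that fit both Mir16-1 and Mir16-2 are left out, so the family's counted reads are a lower limit. The assigned total also leaves out reads of any gene that mapped to several places (41.5% and 42.9% of all reads). The share, the ranks and the nearest genes thus hold for counted reads only, and the share is no lower limit. How far this moves the share in either direction was not tested. All 8 members passed 10 CPM in both libraries, where 266 and 253 of all genes did. By mean level the members ranked from 27 (Mir322) to 146 (Mir503) among the 2202 genes. Summed, the family stood nearest to Mir191 (11799 and 11970 CPM), Mir125a (10516 and 9630) and Mir30a (9958 and 10212), by distance in log2(CPM + 1) over the 2 libraries. For Mir322 alone the nearest genes were Mir151, Mir93 and Mir100, at distances of 0.28, 0.32 and 0.33. With 2 libraries this likeness is one of level.

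**Figure D1:**
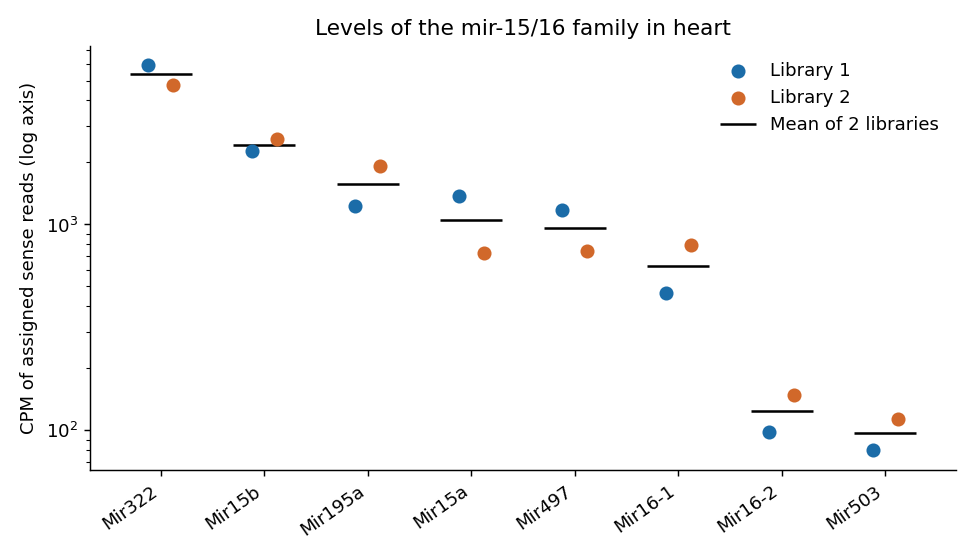
Level of each family member in CPM of assigned sense reads (log axis), with 1 point per library and a line at the mean of 2 libraries. Mir322 is highest in both libraries and Mir503 lowest in both. Reads that fit both Mir16-1 and Mir16-2 are not counted.

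The leading member by counted reads was Mir322, the mouse counterpart of human miR-424, with a mean of 5356 ± 819 CPM (SD, n = 2). It stood at 5935 CPM in library 1 (interval 5829 to 6043) and 4777 CPM in library 2 (4679 to 4877). Its hairpin is on chromosome X, minus strand, 53054255 to 53054349 (mm10). In the annotation used for counting it is in no host gene, while RefSeq draws the long noncoding RNA C430049B03Rik across it and Mir503 (53053112 to 53057190). Mir322 alone gave 47.0% of the family's counted reads in library 1 and 40.4% in library 2. Reads that fit both Mir16-1 and Mir16-2 are not among them.

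Mir503, 200 bases downstream of Mir322 (53053984 to 53054054), was the lowest member. It stood at 80.0 CPM in library 1 (160 reads, interval 68.1 to 93.4) and 114 CPM in library 2 (212 reads, 99.0 to 130), a mean of 96.9 ± 23.9. The member with the odd seed therefore gave 0.633% and 0.962% of the family's counted reads, and the AGCAGCA members gave the rest. Mir322 exceeded its neighbour 74.2-fold in library 1 (63.5 to 87.2) and 42.0-fold in library 2 (36.6 to 48.3).

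The chromosome X locus goes on past Mir503 with 5 more annotated hairpins of other seeds. Mir351 stood at 1625 and 1205 CPM and Mir542 at 295 and 246. Mir450b was at 65.5 and 50.5 CPM, and Mir450-1 and Mir450-2, which share a 22-base stretch, held 11 and 30 reads in both libraries together. All 5 were lower in library 2, as Mir322 was, and 2 of 5 passed the adjusted p (Mir351 and Mir542). None reached 2-fold with it. Of the 344 genes tested, 218 were lower in library 2. Of these 344, 54.1% passed the adjusted p, and 17.2% did so at 2-fold. Mir503 was the only one of the 7 hairpins at this locus that was higher in library 2.

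Mir15b, in an intron of Smc4 on chromosome 3 (69009772 to 69009835, plus strand), was second in level. Smc4 encodes a subunit of condensin, the complex that compacts chromosomes for mitosis. Mir15b stood at 2284 CPM (interval 2218 to 2351) and 2598 CPM (2525 to 2672), a mean of 2441 ± 222. Mir16-2, 66 bases downstream in the same intron, was at 98.5 CPM (197 reads) and 149 CPM (277 reads), a mean of 124 ± 35.5. Counted reads of Mir15b exceeded those of Mir16-2 by 23.2-fold in library 1 (20.1 to 26.9) and 17.5-fold in library 2 (15.5 to 19.8), beside the limit on miR-16-5p given above.

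Mir195a and Mir497 lie 241 bases apart on the plus strand of chromosome 11 (70235042 to 70235135 and 70234717 to 70234800), in no annotated host gene. Mir195a, the member best known from the postnatal heart, stood at 1222 CPM (interval 1174 to 1272) and 1924 CPM (1862 to 1988), a mean of 1573 ± 496. Mir497 stood at 1176 CPM (1129 to 1224) and 740 CPM (702 to 781), a mean of 958 ± 308. Mir195a and Mir497 were thus level in library 1, with a ratio of 1.04 (0.982 to 1.10), and apart in library 2, with a ratio of 2.60 (2.44 to 2.77).

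Mir497 is overlapped on the opposite strand by another annotated hairpin, Mir497b. The sense column gave Mir497 2351 and 1379 reads and Mir497b 0 reads in both libraries, a limit for Mir497b of 1.5 and 1.61 CPM (3 counts). With both strands counted together Mir497 had 0 reads, because reads over 2 genes count as ambiguous there. No other member has an annotated miRNA gene opposite, and none of the 8 had an antisense read.

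Mir15a and Mir16-1 lie 54 bases apart on the minus strand of chromosome 14 (61632027 to 61632110 and 61631880 to 61631972), within the long noncoding RNA gene Dleu2. Mir15a is intronic, and Mir16-1 overlaps an exon of 1 of 15 annotated Dleu2 transcripts. Mir15a stood at 1380 CPM (interval 1329 to 1432) and 729 CPM (691 to 769), a mean of 1055 ± 460. Mir16-1 stood at 463 CPM (433 to 493) and 796 CPM (756 to 837), a mean of 629 ± 235. Counted reads of Mir15a exceeded those of Mir16-1 by 2.98-fold in library 1 (2.77 to 3.22). In library 2 they were just under, at a ratio of 0.916 (0.851 to 0.987). The counts of Mir16-1 leave out reads that also fit Mir16-2.

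**Figure D2:**
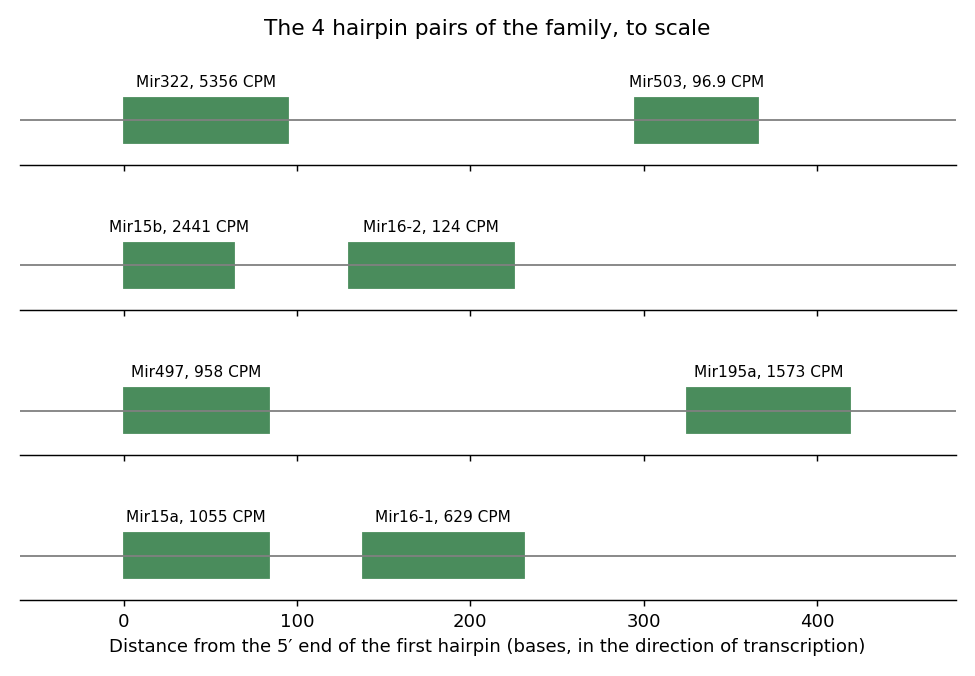
The hairpins (green boxes) of the 4 pairs, drawn to scale as distance in bases from the 5′ end of the upstream hairpin, with each mean level in CPM. Gaps run from 54 bases (Mir15a to Mir16-1) to 241 bases (Mir497 to Mir195a), and the upstream hairpin has the higher mean in each pair except Mir497 and Mir195a.

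Mir322 and Mir15b kept their places in the order of counted levels beyond the spread of the libraries. The lowest value of Mir322 (4777 CPM) was above the highest of Mir15b (2598 CPM), and the lowest of Mir15b (2284 CPM) above the highest of Mir195a (1924 CPM). From Mir195a through Mir15a and Mir497 to Mir16-1, each neighbouring pair overlapped between libraries, so their order was not settled. Mir16-1 stood apart from Mir16-2 below it (463 against 149 CPM at their closest), and the ranges of Mir16-2 and Mir503 overlapped. The counts of Mir16-1 and Mir16-2 leave out reads that fit both, so their places hold for counted reads only.

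**Figure D3:**
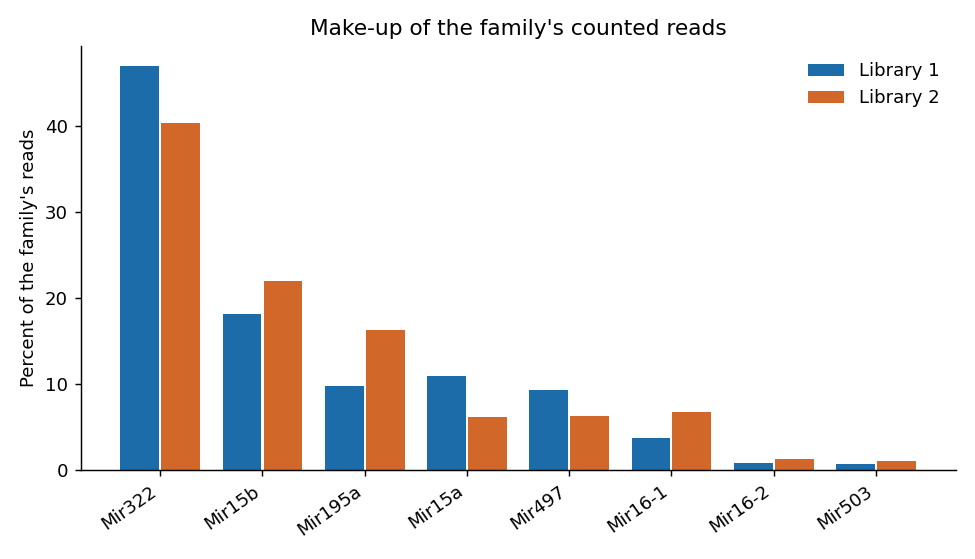
Percent of the family's sense reads from each member, with 1 bar per library. Mir322 gives 47.0% and 40.4%, and Mir15b is the next highest in both libraries.

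By locus, the chromosome X pair gave 47.6% and 41.4% of the family's reads. The Smc4 pair gave 18.8% and 23.2%, the chromosome 11 pair 19.0% and 22.5%, and the Dleu2 pair 14.6% and 12.9%. The order of the Smc4 and chromosome 11 pairs was not settled, because the exact intervals of their shares of assigned reads overlapped in both libraries. By counted reads the chromosome X pair was highest and the Dleu2 pair lowest in both libraries. The Smc4 and Dleu2 sums leave out reads that fit both Mir16-1 and Mir16-2, so the locus order holds for counted reads only.

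The libraries were then compared member by member, to see how far each level held between replicates. The exact two-sided conditional binomial test asks whether a gene's reads split as the assigned totals do; it knows counting error only and compares 2 libraries, not conditions. None of the 8 members met both criteria of a call, a 2-fold ratio and an adjusted p (Benjamini-Hochberg) under 0.05, against 17.2% of the 344 genes tested. Of the 141 tested genes that averaged at least 100 CPM, a level that all members but Mir503 reached, 12.1% were called. All 8 members passed the adjusted p alone, as did 54.1% of tested genes and 80.1% of the 141. At these depths a small difference passes, so the sizes say more than the test.

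The members did not differ in 1 direction. Lower in library 2 were Mir15a (log2 ratio of library 2 over library 1 of -0.92, interval -1.02 to -0.83), Mir497 (-0.67, -0.76 to -0.57) and Mir322 (-0.31, -0.35 to -0.27). Higher in library 2 were Mir16-1 (0.78, 0.66 to 0.90), Mir195a (0.65, 0.58 to 0.73), Mir16-2 (0.59, 0.33 to 0.86), Mir503 (0.51, 0.21 to 0.81) and Mir15b (0.19, 0.13 to 0.24). The adjusted p in the exact test ran from 4.13e-86 for Mir15a to 0.00184 for Mir503. The median member was at 0.35, and the median of all tested genes at -0.19. With trimmed-mean-of-M-values (TMM) scaling from the tested genes, 0.19 was added to every log2 ratio and each member kept its direction. TMM also turned the split of all called genes from 19 higher and 40 lower in library 2 to 28 of 55 higher. With TMM factors from all genes, a setting chosen after seeing the data, Mir16-1 reached 1.01 and passed both criteria.

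**Figure D4:**
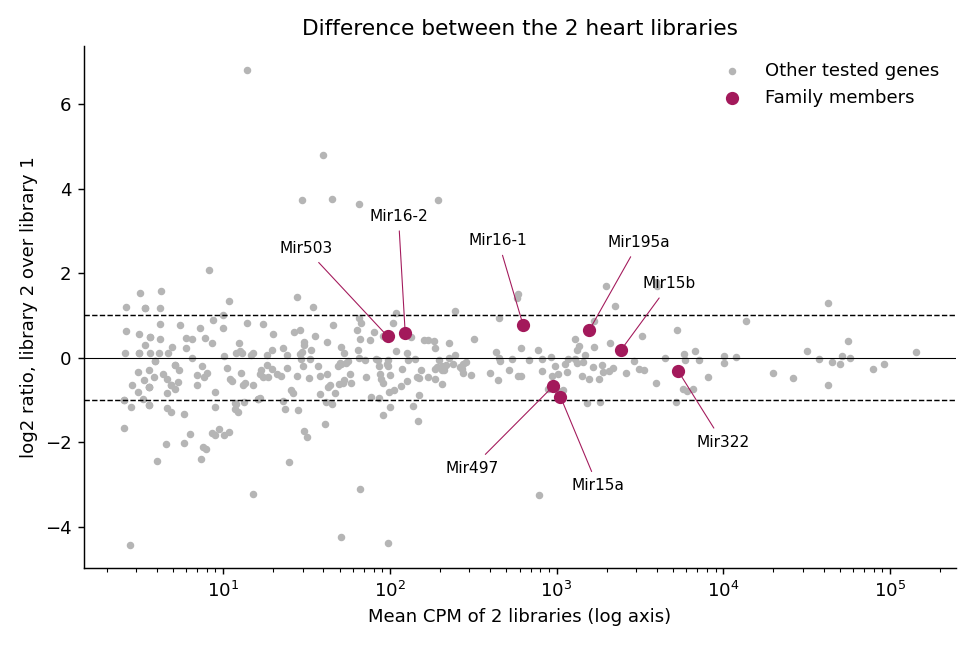
Each tested gene by its mean CPM (log axis) and its log2 ratio of library 2 over library 1, with family members in purple and dashed lines at 2-fold. All 8 members lie between the dashed lines, 5 above 0 and 3 below.

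Hairpins that sit side by side differed between the libraries in opposite directions at 3 of the 4 loci. The ratio of Mir15a to Mir16-1 was 3.26-fold lower in library 2 than in library 1, and that of Mir322 to Mir503 was 1.77-fold lower. The ratio of Mir195a to Mir497 was 2.50-fold higher in library 2. At the Smc4 locus both hairpins were higher in library 2, and the ratio of Mir15b to Mir16-2 was 1.33-fold lower there. Both counts of a ratio come from the same library, so scaling does not enter it. In all 4 pairs the exact intervals of the ratio in the 2 libraries did not overlap. Ratios with Mir16-1 or Mir16-2 are of counted reads, which leave out reads that fit both.

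**Figure D5:**
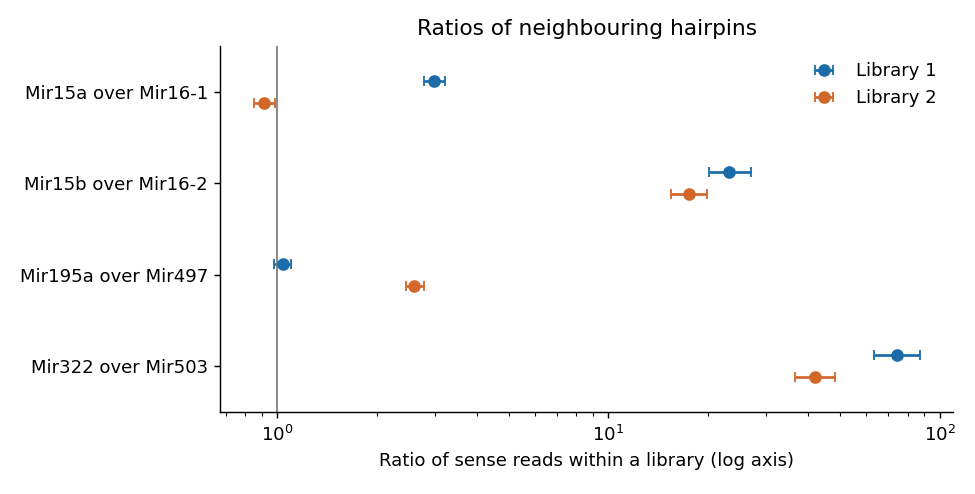
Ratio of sense reads of neighbouring hairpins within each library (log axis), with exact 95% intervals that cover counting error only and a line at 1. The ratio of Mir15a to Mir16-1 is above 1 in library 1 and below it in library 2, while that of Mir195a to Mir497 is near 1 only in library 1.

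Summed over a locus, the opposite differences offset each other in part at the Dleu2 and chromosome 11 loci. At the chromosome X locus Mir322 sets the sum, which follows it. The level in library 2 over that in library 1 was 0.828 for the Dleu2 pair, 1.11 for the chromosome 11 pair, 1.15 for the Smc4 pair and 0.813 for the chromosome X pair. For single hairpins the difference was as large as 1.89-fold (Mir15a). For comparison, 35 pairs of adjacent hairpins on 1 strand were under 1000 bases apart with 100 or more summed reads each, a rule set after seeing the data. Their ratios changed between libraries by a median of 1.33-fold, and those of the 4 family pairs by a median of 2.10-fold. The family pairs ranked 2, 4, 11 and 19 of the 35, and the hairpins of a pair differed in opposite directions in 3 of 4 family pairs and in 9 of the 31 others. Unlike the ratios, these directions depend on scaling: with TMM or DESeq2 scaling they were opposite in 3 of 4 family pairs and in 14 of the 31 others. No test was made of this difference. Pairs can share a hairpin, and Mir16-1 and Mir16-2 carry the limit on shared reads.

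Genes outside the family that carry its seed were nearly absent. RefSeq lists 4, and each strand is shown because it could reach the same seed sites.
miR-195b: uAGCAGCAcagaaauaguagaa
miR-6342: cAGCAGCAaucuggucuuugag
miR-6353: uAGCAGCAcguauuuauccuauu
miR-6419: cAGCAGCAaucugacacaugga
Mir195b had 1 read in both libraries together, and Mir6342, Mir6353 and Mir6419 had 0, under the same limit of 3 counts as Mir497b. All counted reads of AGCAGCA loci but 1 thus came from the family.

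miR-103 and miR-107 carry the same letters shifted by a base, at positions 1 to 7 (capitals).
miR-103-3p: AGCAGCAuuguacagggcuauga
miR-107-3p: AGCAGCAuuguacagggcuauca
Mir107 stood at 1158 and 883 CPM. Mir103-1 held 5 and 1 reads and Mir103-2 held 29 and 8, and the 2 loci make the same 3p strand. The 3 genes together reached 0.118% and 0.0888% of assigned reads, so the family's counted reads were 10.8 and 13.3 times theirs. Each of the 3 shares a 22-base stretch with another, so reads can be missing, and how many was not tested. Mir103-2 was called higher in library 1, against 11.6% of tested genes in that direction.

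Other miRNAs known from work on heart muscle cell division were set beside the family in lists made with earlier results of these data known. The list of miRNAs known to favour division holds members of the mir-17-92 and mir-302 clusters, Mir199a, Mir204, Mir222 and Mir590. Of its 16 genes, 15 were matched and 11 tested, and together they took 0.602% and 0.489% of assigned reads. Of the 15 matched, 4 share a 22-base stretch with another locus, so reads can be missing from their counts. Mir17 (2298 and 1833 CPM), Mir92-1 (2108 and 1497), Mir20a (1185 and 1061) and Mir222 (218 and 77.3) reached a mean of 100 CPM. Of the 11 tested, 4 were called higher in library 2, against 5.52% of tested genes in that direction. These were Mir302a, Mir302b, Mir302c and Mir302d, miRNAs known from pluripotent stem cells, with 25 reads in library 1 and 455 in library 2. They are neighbouring hairpins of the mir-302 cluster, so their calls are not independent of each other. Mir222 was called higher in library 1. Their part in the family's differences was not tested.

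The list of miRNAs known to restrain division took 0.744% and 0.852% of assigned reads. Mir29a (4468 and 4472 CPM), Mir34a (2683 and 3812) and Mir128-1 (174 and 125) gave nearly all of it. None of its 7 tested members was called at 2-fold in the exact test, against 17.2% of tested genes. The adjusted p alone was passed by 2 of the 7 (Mir34a and Mir128-1), against 54.1% of tested genes. The median log2 ratio was 0.00 for this list and -0.15 for the list favouring division, against -0.19 over all tested genes. Of the 10 members of the list restraining division, 8 share a 22-base stretch with another locus, among them Mir1a-1, Mir1a-2, Mir133a-1 and Mir133a-2. The counted reads of this list are thus a lower limit. The mir-15/16 family held 1.70 and 1.39 times the counted reads of this list, and 2.10 and 2.42 times those of the list favouring division. Reads can be missing from the family and from both lists, so these ratios hold for counted reads only.

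Of the marker lists of other cells, only that of fibroblasts held a gene called between the libraries. Mir214, known from fibroblasts, was called lower in library 2, at 2471 and 1190 CPM. Its list of 4 genes stood at 0.248% and 0.120% of assigned reads, with Mir199a-1 at 0 in both libraries. The other 3 genes of the list (Mir199a-1, Mir199a-2 and Mir199b) share a 22-base stretch, so reads can be missing and the 0 does not show absence. With TMM scaling Mir214 (log2 ratio -0.86) no longer reached 2-fold. Mir199b of the same list was at 4.00 and 6.98 CPM, with no call. Mir21a, a fibroblast-linked miRNA outside the list and named after its values were seen, was called higher in library 2, at 1776 and 6143 CPM. The endothelial list of 2 genes stood at 4.89% and 6.38%, the smooth muscle list of 2 at 3.95% and 3.87%, the leukocyte list of 4 at 0.536% and 0.495%, and the red blood cell list of 4 at 0.249% and 0.200%. The part of these markers in the members' differences was not tested.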

How the data were processed

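Raw read counts per miRNA gene were deposited by the authors as 1 table per library, with 3 columns (both strands, sense, antisense). Per the text deposited beside them, the assembly was mm10 and the annotation M21. Aligner and counter were not given in the sources used here. Each column's strand was read from the values. The 4 status rows (unmapped reads, reads mapping to several places, 41.5% and 42.9% of all reads, reads in no gene, ambiguous reads) stayed out of totals and tests.

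Identifiers were matched to GENCODE M21 symbols, and CPM were computed on the sense column. Genes with 10 or more summed counts were compared between libraries by the exact conditional binomial test (scipy 1.17.1). The p-values were Benjamini-Hochberg adjusted over all of these genes, and 0.5 was added to counts for log2 ratios. The test was checked on simulated counts with counting error only, which is less spread than these libraries show. A call needed an adjusted p under 0.05 and a 2-fold ratio. The libraries differed beyond sampling noise (chi-square 92268, 343 degrees of freedom) and were kept as 2 samples. TMM (edgeR 4.0.16) and DESeq2 1.42.0 scaling, other filters, denominators and pseudocounts were alternatives.

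All members are named, along with list genes at a mean of 100 CPM (or the highest), the genes nearest in level, and lower list members where a statement turns on them. Members and lists were chosen with earlier results of these data known. Mir18a, Mir92a-1, Mir486b and the Mir450a genes were matched by their RefSeq synonyms.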

Additional observations from a re-analysis of the deposited data

Results flagged for a closer look

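Reads that mapped to several places are outside the gene counts. There were 2273922 in library 1 and 2098983 in library 2. They were not traced to a locus here. The sequence of miR-16-5p is in both the Mir16-1 and the Mir16-2 hairpin. Copies outside annotated hairpins, and short or mismatched reads of the other members, were not tested. With both strands counted together, 432966 reads in library 1 and 450849 in library 2 were ambiguous. Among them are the reads that the sense column gives to Mir497 (2351 and 1379), which has Mir497b opposite. With 2 libraries in 1 group, outlying samples and differences between groups could not be looked for.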

How the results depend on the processing

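No paired analysis was possible because both libraries belong to 1 group. With all reads as the denominator the family's share was 0.456%, and the levels were 1992 CPM for Mir322, 911 for Mir15b, 589 for Mir195a, 391 for Mir15a, 355 for Mir497, 236 for Mir16-1, 46.3 for Mir16-2 and 36.3 for Mir503. With both strands counted together the share was 1.46%, with Mir322 at 6939 CPM, Mir15b at 3171, Mir16-2 at 161, Mir503 at 126 and Mir497 at 0, so that neither a log2 ratio nor a partner ratio of Mir497 could be had. Without the most abundant gene in the total the share was 1.43%, with Mir322 at 6245 CPM and Mir15b at 2850. Without Mir16-1 and Mir16-2, which share 22 bases, the share was 1.15%. These settings change totals by construction and not the order within a library, apart from Mir497. Per base of hairpin length the log2 ratio of Mir15b over Mir16-2 was 4.90, against 4.33.

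The count of genes called between libraries was 59 of 344 tested, against 39 of 249 with 50 or more summed counts, where fewer genes are tested. At 1.5-fold 105 of 344 tested genes were called. Among them were 5 of the 8 family members (Mir195a, Mir15a, Mir497, Mir16-1 and Mir16-2), against 0 of 8 at 2-fold. With TMM factors from all genes 57 of 344 tested genes were called, among them 1 member, Mir16-1, at a log2 ratio of 1.01. No log2 ratio of a member changed direction under TMM, DESeq2, pseudocounts of 1 or 5, or both strands. With 1 library left out, the family's share ran from 1.18% to 1.26%, and no ratio between libraries exists. With counts alone, depth limits Mir503 and Mir16-2 most, at 160 to 277 reads.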

Other observations

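Of the 35 pairs of adjacent hairpins, the pair whose ratio changed most between libraries was Mir296 and Mir298 (3.41-fold), followed by the family's Mir15a and Mir16-1 (3.26-fold) and by Mir23a and Mir27a (2.85-fold). The 4 smallest changes were those of Mir191 and Mir425 (1.03-fold), Mir382 and Mir134 (1.02-fold), Mir99a and Mirlet7c-1 (1.01-fold) and, smallest, Mir18 and Mir20a (1.003-fold). These pairs were named after their values were seen.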
